A study of Neurospora crassa with 22 samples.

Results

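The genes clr-1, clr-2, clr-3 and xlr-1 encode regulators of plant cell wall degradation in the filamentous fungus Neurospora crassa, and the products of 3 of them (CLR-1, CLR-2 and XLR-1) are the factors whose binding was mapped here by ChIP-seq, in which chromatin bound by a tagged protein is recovered with an antibody and sequenced. Around these 4 of the 9729 protein-coding genes on the 7 chromosomes, all peaks were collected that the deposited tables name beside the gene or whose summit lay within 5 kb of its start codon. This gave 101 of the 42691 peaks in the 17 lists. Of these, 32 belonged to clr-1, 27 to clr-2, 19 to clr-3 and 23 to xlr-1.

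All 4 proteins act in 1 network. CLR-1 and CLR-2 are zinc cluster activators of cellulase genes, and CLR-1 is known to switch on clr-2 when cellulose is sensed. XLR-1, also a zinc cluster protein, activates genes for xylan degradation. CLR-3 is known to hold CLR-1 inactive while no cellulose is present. A factor that binds at its own gene is said to show auto-binding, and a factor that binds at the gene of another regulator, cross-binding.

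Mycelium of strain OR74A was grown on sucrose for 16 h, washed and moved to xylan, Avicel (a crystalline cellulose) or sucrose. Times of 4 and 24 carry no unit in the labels and are read here as hours. XLR-1-GFP was taken on xylan (n = 3 lists) and Avicel (n = 3), mCherry-CLR-2 on Avicel (n = 3), and CLR-1-GFP on Avicel (n = 3) and sucrose (n = 2), all at 4 h. Single lists came from CLR-2 on Avicel at 24 h, CLR-1-GFP on Avicel at 24 h and CLR-1-V5 on Avicel at 4 h. In all strains but the V5 strain the tagged gene stood at the his-3 locus behind the promoter of ccg-1, not its own. The XLR-1-GFP, CLR-1-GFP and 4 h mCherry-CLR-2 strains also had the resident copy of the tagged gene replaced by the resistance marker HygR. The CLR-2 strain at 24 h was a heterokaryon, a mycelium of mixed nuclei, with no such deletion given. In the V5 strain the genotype reads clr1-V5::HygR with mus51 deleted, so no second copy of clr-1 is named, and its antibody field reads "none". Nothing says that lists of a group came from separate cultures, so p-values measure the spread between lists, which may be technical.

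Lists held between 701 and 8194 peaks, and the peaks of the 4 genes held between 11 and 11723 tags, with a median of 242. Score (derived from the p-value of the peak caller, with an upper limit of 3100), fold enrichment and FDR are the authors' values for each peak, and are used here to rank peaks within a list. A percentile is the position of a peak among all peaks of its own list. In CLR-2 list 1 a fold below 1 was deposited for 94.8% of the peaks, and in CLR-2 list 3 for 33.9%. In the CLR-1 list at 24 h peaks were narrow, with a median width of 225 bp against 1751 bp in the 4 h list 1, and 90.6% of all genes had a summit within 5 kb. No peak list of mock pulldowns or inputs was analysed here, so no background at these genes stands beside the values.

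Each of the 3 factors had peaks near clr-1, clr-2 and clr-3 in its replicated groups, while xlr-1 had recurrent peaks more than 5 kb upstream. With a summit within 5 kb in at least 2 lists as the call, 3 of the 4 genes (clr-1, clr-2 and clr-3) were called in each of the 5 replicated groups. The same rule called 16.9% of all genes for XLR-1 on xylan, 50.6% for XLR-1 on Avicel, 31.9% for CLR-2 on Avicel, 26.7% for CLR-1 on Avicel and 12.6% for CLR-1 on sucrose. For XLR-1 on Avicel the count of 3 in 4 thus stood beside a call at about every other gene. The count rested on single lists in 3 of the groups, where with 1 list left out a call needed a summit in both remaining lists. It was 1, namely clr-1, without list 3 of XLR-1 on xylan (11.4% of all genes), without list 3 of XLR-1 on Avicel (20.6%), and without CLR-2 list 2 (25.3%) or list 3 (10.1%).

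In the single lists, CLR-2 at 24 h had a summit within 5 kb of 4 of the 4 genes (37.8% of all genes), CLR-1 at 24 h likewise 4 of 4 (90.6%), and CLR-1-V5 at 4 h 3 of 4 (18.1%). With peaks that the tables name added to those within 5 kb, xlr-1 was called too, and the count was 4 of 4 in each replicated group. The shares of all genes under that wider rule were 17.5% for XLR-1 on xylan, 51.8% for XLR-1 on Avicel, 33% for CLR-2 on Avicel, 28.6% for CLR-1 on Avicel and 13.6% for CLR-1 on sucrose. The wider rule was chosen after the xlr-1 peaks were seen to lie beyond 5 kb. Nearest inside the limit of 5 kb were summits at -4277 bp from the clr-1 start codon and 4277 bp from that of clr-2, and just outside it, not named for the gene and left out, summits at -5062 bp (CLR-2 list 1) and 5211 bp from clr-2 and 5398 bp from clr-1.

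Summits of all lists within 8 kb of each start codon were then joined into sites where neighbouring summits lay at most 250 bp apart, a grouping chosen after positions were seen. Collected peaks fell into 30 such sites. Presence at a site counts summits only, so a list whose broad peak spans a site with its summit elsewhere counts as without one. Distances are from the start codon, and negative ones are upstream.

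**Figure D1:**
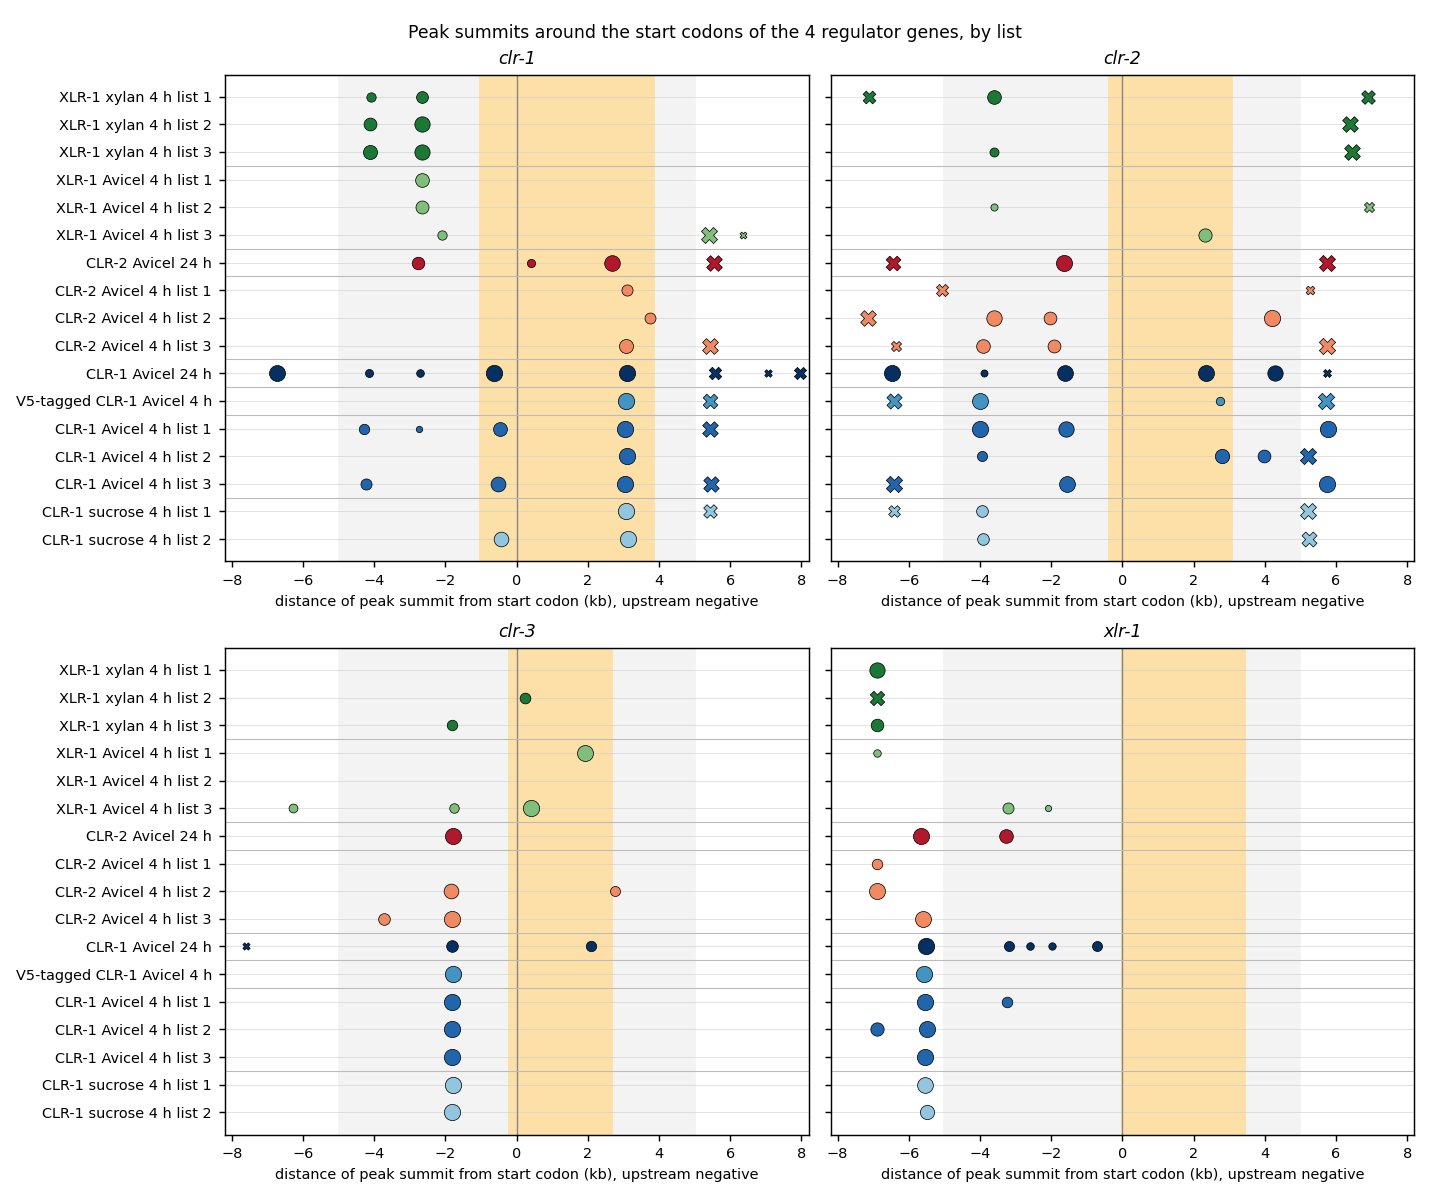
Position of each peak summit (x axis, kb from the start codon, upstream negative) in each of the 17 lists (y axis) for clr-1, clr-2, clr-3 and xlr-1. Circles are the collected peaks and crosses other summits within 8 kb, point size grows with the percentile of the score in its list, colour marks the group, grey marks 5 kb on either side and orange the annotated gene. The column of CLR-1 summits is straight at 3.08 kb in clr-1, at -1.81 kb in clr-3 and at -5.55 kb in xlr-1, and is broken up around clr-2.

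At clr-1 the CLR-1 peak with the highest folds at 4 h lay near the end of the gene, and the recurrent XLR-1 peaks lay upstream. The gene clr-1 (NCU07705) lies on the minus strand of chromosome IV, from 2149157 to 2154036 in the NC12 assembly, with its start codon at 2153017. Its main CLR-1 site, at 3.08 kb, is inside the annotated gene toward its 3′ end. It had a summit in 0 of the 6 XLR-1 lists, in 2 of the 4 from CLR-2 and in 7 of the 7 from CLR-1.

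The CLR-1 folds at this site were 35.16, 75.11 and 26.74 in the 3 Avicel lists at 4 h, against 16.66 and 3.89 in the 2 sucrose lists. They were 20.27 in the V5 list and 9.07 in the 24 h list. Ranks within a list stand beside the folds here. Only 2, 3 and 4 peaks had a higher fold in the Avicel lists 1, 2 and 3, against 1 and 12 peaks in the sucrose lists 1 and 2. In the V5 list no peak of the 1528 had a higher fold, and in the 24 h list 4068 of 8194 had. By tags the site was less extreme in the 4 h lists. There 14 to 111 peaks held more tags in the Avicel lists, 436 and 59 in the sucrose lists 1 and 2, and 271 in the V5 list. The 24 h list went the other way, with 19 peaks holding more than its 872 tags and a score percentile of 98.5.

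In CLR-2 the same site ranked lower by fold than in the 4 h CLR-1 lists. CLR-2 list 1 had a fold of 0.52 with 118 tags (fold percentile 52.8, FDR 3.34%) and list 3 a fold of 1.64 with 433 tags (fold percentile 86.4, FDR 2.56%), while list 2 had its summit in the gene elsewhere, at 3738 bp (fold 1.93, FDR 100%). The CLR-2 list at 24 h had its best-scored peak in the gene at 2686 bp, with a fold of 4.46. All 4 CLR-2 lists thus had a peak inside the gene downstream of its start codon, and the best-scored ones of list 2 and of 24 h were at 3738 and 2686 bp. Both of these peaks spanned the 3.08 kb site, with their summits elsewhere. The deposited tables did not name clr-1 beside the 3.08 kb site in any list. The nearest other start codon is that of NCU16776, and the site lies at -4293 bp from it.

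The CLR-1-GFP strain carries its only named clr-1 coding sequence in the his-3 construct, and reads from that copy would map to the coordinates of clr-1. The resident copy was replaced in that strain, so sequence removed there would be read from the construct alone. Where the construct and the deletion end is not given here, so the source of the 3.08 kb peak in that strain cannot be told. The V5 strain, whose genotype names no his-3 construct, had its summit there at 3082 bp, between the lowest (3051 bp) and highest (3121 bp) of the 7 CLR-1 lists. At his-3 itself, CLR-1-GFP had a summit within 5 kb in 0 of 3 lists on Avicel at 4 h and in sucrose list 2 at -2085 bp (1737 tags, fold 1.98). The 24 h list had 5 there, 2 of them inside his-3, with 24 to 48 tags.

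Upstream of clr-1 both XLR-1 and CLR-1 had summits, and the site with the most XLR-1 lists was at -2.67 kb. At -2.67 kb a summit was present in 3 of 3 xylan lists and 2 of 3 Avicel lists of XLR-1, with folds of 19.60, 34.52 and 20.99 on xylan and 14.46 and 14.37 on Avicel. The fold percentiles were 54.1, 86.9 and 92.2 on xylan, against 64.4 and 56.6 on Avicel. The remaining Avicel list, list 3, had its summit at -2087 bp with a fold of 8.30. Tags were few, 22, 53 and 110 on xylan, against 19 and 15 on Avicel. These 5 XLR-1 summits lay within 17 bp of each other. CLR-2 at 24 h had a summit at -2776 bp (fold 2.21), CLR-1 at 24 h one at -2711 bp (fold 5.70), and CLR-1 on Avicel list 1 one at -2752 bp (fold 3.61).

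A further site at -4.13 kb had a summit in 3 of 3 XLR-1 lists on xylan and 0 of 3 on Avicel. Its xylan folds were 13.66, 12.31 and 10.65, with 15, 19 and 62 tags. Fisher's exact test of presence gave p = 0.1, two-sided, the smallest that 3 against 3 lists allow, and an adjusted p of 1 over 87 tests of sites. CLR-1 had summits there in Avicel lists 1 and 3 and at 24 h, with folds of 4.25 to 5.37. In the authors' deposited table for XLR-1 on xylan list 1, the column "Trusted?" reads MAYBE for this peak and NO for the one at -2667 bp.

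Nearest upstream of the clr-1 start codon, at -0.50 kb and within the annotated transcript, lay a CLR-1 site. It was present in Avicel lists 1 and 3 (folds 5.59 and 5.04), against sucrose list 2 (fold 2.37, FDR 24.95%). The fold percentiles were 57.7 and 51.3 on Avicel, against 65.4 in the sucrose list. At 24 h the summit was at -641 bp, with a fold of 14.89, and 369 of 8194 peaks had a higher fold. No CLR-2 or XLR-1 list had a summit in this site. Nearer to the start codon, on its other side, CLR-2 at 24 h had a summit at 395 bp (2378 tags, fold 1.81, FDR 87.35%). That CLR-2 peak, from 2150985 to 2153294, spanned the start codon.

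Peaks at clr-2 were spread over several sites. The gene clr-2 (NCU08042) lies on the plus strand of chromosome IV, from 4001190 to 4004643, with its start codon at 4001554. Its 27 peaks came from 14 lists, 18 of them upstream, 4 inside the gene and 5 downstream. No site held summits in more than 7 of the 17 lists. At -1.61 kb, between clr-2 and the gene upstream of it, CLR-1 on Avicel at 4 h had folds of 9.53 (list 1) and 12.74 (list 3) and none in list 2, against none in either sucrose list. Fisher's exact test of presence at the whole gene gave p = 1 for Avicel against sucrose, since other sites within 5 kb were present in each list.

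CLR-2 peaks were recorded upstream of clr-2, its own gene, but with no mock pulldown or input beside them they do not establish auto-binding. At 24 h the CLR-2 summit lay at -1637 bp, with a score at the limit of 3100, a fold of 3.67 and 6301 tags. At 4 h, CLR-2 lists 2 and 3 had summits at -2035 bp (fold 2.56, FDR 100%) and -1912 bp (fold 0.84, FDR 7.14%), and list 1 had none. By score these stood at the percentiles 54.2 and 55.5 of their lists and the 24 h peak at 96.2. Elsewhere near clr-2 the 4 h lists held peaks of higher rank. List 2 had summits at 4209 bp (6634 tags, fold 2.94, FDR 11.1%, percentile 98.2 by score) and -3618 bp (percentile 86.5), and list 3 had one at -3910 bp (percentile 64.4). List 1 had one beyond the 5 kb limit, at -5062 bp (fold 0.72, FDR 0.87%, percentile 46.5 by score and 80.4 by fold). The 2 times differ in strain as well, since the 24 h strain has no deletion of clr-2 given. With 1 list at 24 h there is no test.

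A site at -3.94 kb had summits in 0 of the 6 XLR-1 lists, in 1 of the 4 from CLR-2 and in 6 of the 7 from CLR-1. Peaks with their summit elsewhere also spanned it, in CLR-2 list 2, in CLR-2 at 24 h and in the 3 XLR-1 lists with a summit at -3.61 kb. CLR-1 folds were 13.18 and 7.16 on Avicel (lists 1 and 2) against 4.61 and 2.86 on sucrose. The peak of sucrose list 2 had an FDR of 19.0%. By rank within the list the groups overlapped, with fold percentiles of 90.8 and 39.1 on Avicel against 72.1 and 80.9 on sucrose. The median summit of this site is at -427 bp from the start codon of NCU16830, on the same strand, and so lies before that gene as well as before clr-2. At -3.61 kb, -106 bp from the same start codon, XLR-1 had summits in xylan lists 1 and 3 (folds 29.76 and 8.01, tags 33 and 35), against Avicel list 2 (fold 11.48, 11 tags). CLR-2 list 2 had a summit there too (fold 2.80), and the 4 summits lay within 7 bp. The authors' deposited table marks the xylan list 1 peak there, at -3616 bp, NO in the column "Trusted?".

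Downstream of clr-2 the summits lay nearer to the start codon of another gene, NCU08043, than to that of clr-2. The strongest CLR-1 peaks credited to clr-2 by the deposited tables, in Avicel lists 1 and 3, had summits at 5765 and 5758 bp with folds of 22.33 and 24.16. They lie at -21 and -28 bp from the start codon of NCU08043 and are broad peaks whose tables measured distance from the peak start. Inside the clr-2 gene, summits were found in 1 XLR-1 list (Avicel list 3, 2311 bp, fold 10.55) and 3 CLR-1 lists, among them CLR-1-V5 at 2740 bp (fold 4.49), and in 0 of 4 CLR-2 lists. This counts summits only. The peak of CLR-2 list 2 from 4003950 to 4010871 overlapped the end of the annotated gene, and the 24 h peak from 3996568 to 4001291 its start. How much of the gene the CLR-2 construct carries is not given here.

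The gene clr-3 had the site shared by the most lists. It lies on the minus strand of chromosome VII (NCU05846, 4035638 to 4038540, start codon at 4038318), and the site at -1.81 kb is in the intergenic stretch before it, with the next start codon, that of NCU05848, farther away. Summits were present in 2 of the 6 XLR-1 lists, in 3 of the 4 from CLR-2 and in 7 of the 7 from CLR-1, 12 of 17 in all. The 12 summits had a mean distance of -1806 ± 22.7 bp (SD) from the start codon and spanned 89 bp.

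CLR-1 folds at clr-3 were 31.33, 38.71 and 27.85 on Avicel, against 16.18 and 3.91 on sucrose, with 18.13 in the V5 list and 9.17 at 24 h. In the Avicel lists 4, 18 and 1 peaks had a higher fold, and in the sucrose lists 4 and 4. The clr-3 site was therefore among the top peaks of the CLR-1 lists on both carbon sources. Tags were 1727, 222 and 2304 on Avicel and 1307 and 4123 on sucrose. At 24 h only 2 of 8194 peaks held more tags than its 3228, although 3971 had a higher fold.

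CLR-2 had folds at clr-3 of 4.20 in list 2 (FDR 53.9%), 2.30 in list 3 (FDR 0%) and 7.44 in the 24 h list (FDR 0%), where 47 of 1672 peaks had a higher fold. List 1 of CLR-2 had no peak near clr-3. In XLR-1 the site had folds of 6.39 in xylan list 3 (37 tags, fold percentile 19.8) and 8.55 in Avicel list 3 (45 tags, fold percentile 53.6). XLR-1 on Avicel had higher-scored summits inside the gene instead, at 407 bp in list 3 (258 tags, percentile 99.6 by score) and at 1920 bp in list 1 (50 tags, percentile 94.5). The 2 in-gene positions differed by more than 1 kb, and xylan list 2 had a summit at 239 bp with 13 tags.

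At xlr-1 the site with a summit in each CLR-1 list had none from XLR-1, while other sites were shared. The gene (NCU06971) lies on the minus strand of chromosome IV, from 4706112 to 4709560, with its start codon at 4709558. Between it and NCU06973, which is transcribed away from it, are 10736 bp without a gene. All 23 peaks were in this stretch and 0 were inside xlr-1. Both main sites are nearer to the start codon of NCU06973 than to that of xlr-1, at -5184 bp and -3843 bp from it, so the tables' naming of xlr-1 does not say which gene the site serves.

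The CLR-1 site at -5.55 kb had a summit in 0 of the 6 XLR-1 lists, in 2 of the 4 from CLR-2 and in 7 of the 7 from CLR-1. The peak of CLR-2 list 2 also spanned it, with its summit at -6896 bp. CLR-1 folds were 26.96, 27.52 and 25.57 on Avicel against 9.32 and 3.22 on sucrose, 13.70 in the V5 list and 10.29 at 24 h. The peak of sucrose list 2 had an FDR of 24.8%. Between 7 and 59 peaks had a higher fold in the Avicel lists, against 55 and 233 in the sucrose lists. CLR-2 had folds of 1.93 (list 3) and 7.45 (24 h), the second with 44 of 1672 peaks above it. For XLR-1 on Avicel against CLR-1 on Avicel, presence at this site and at the 3.08 kb site of clr-1 was 0 of 3 against 3 of 3 lists. Each gave p = 0.1 by Fisher's exact test, two-sided, the smallest possible, with an adjusted p of 1.

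Before its own gene XLR-1 had its recurrent peaks at -6.90 kb. Summits were present in 3 of 3 xylan lists, with folds of 38.62, 23.80 and 11.68 and tags of 40, 21 and 43, against 1 of 3 Avicel lists, with a fold of 11.05 and 12 tags. Their fold percentiles were 90.1, 75.8 and 72.5 on xylan, against 23.3 on Avicel. Fisher's exact test of presence gave p = 0.4. The peak of xylan list 2 was found by coordinates, since its gene columns repeat those of list 1, and it is not among the 101. CLR-2 lists 1 and 2 had summits there as well (folds 0.45 and 3.24, both at -6896 bp), as had CLR-1 on Avicel list 2 (fold 9.99). The 7 summits spanned 23 bp. In the authors' deposited table the xylan list 1 peak at -6890 bp is marked NO in the column "Trusted?". Within 5 kb of xlr-1 the XLR-1 summits came from Avicel list 3, at -3218 bp (fold 9.05, 45 tags) and -2096 bp (fold 6.03, 28 tags). The site of the first, at -3.24 kb, also had summits from CLR-2 at 24 h (fold 2.72), CLR-1 on Avicel list 1 (fold 3.61) and CLR-1 at 24 h (fold 5.72). Its score percentiles ran between 28 in the CLR-1 list at 24 h and 64.7 in the CLR-2 list at 24 h.

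**Figure D2:**
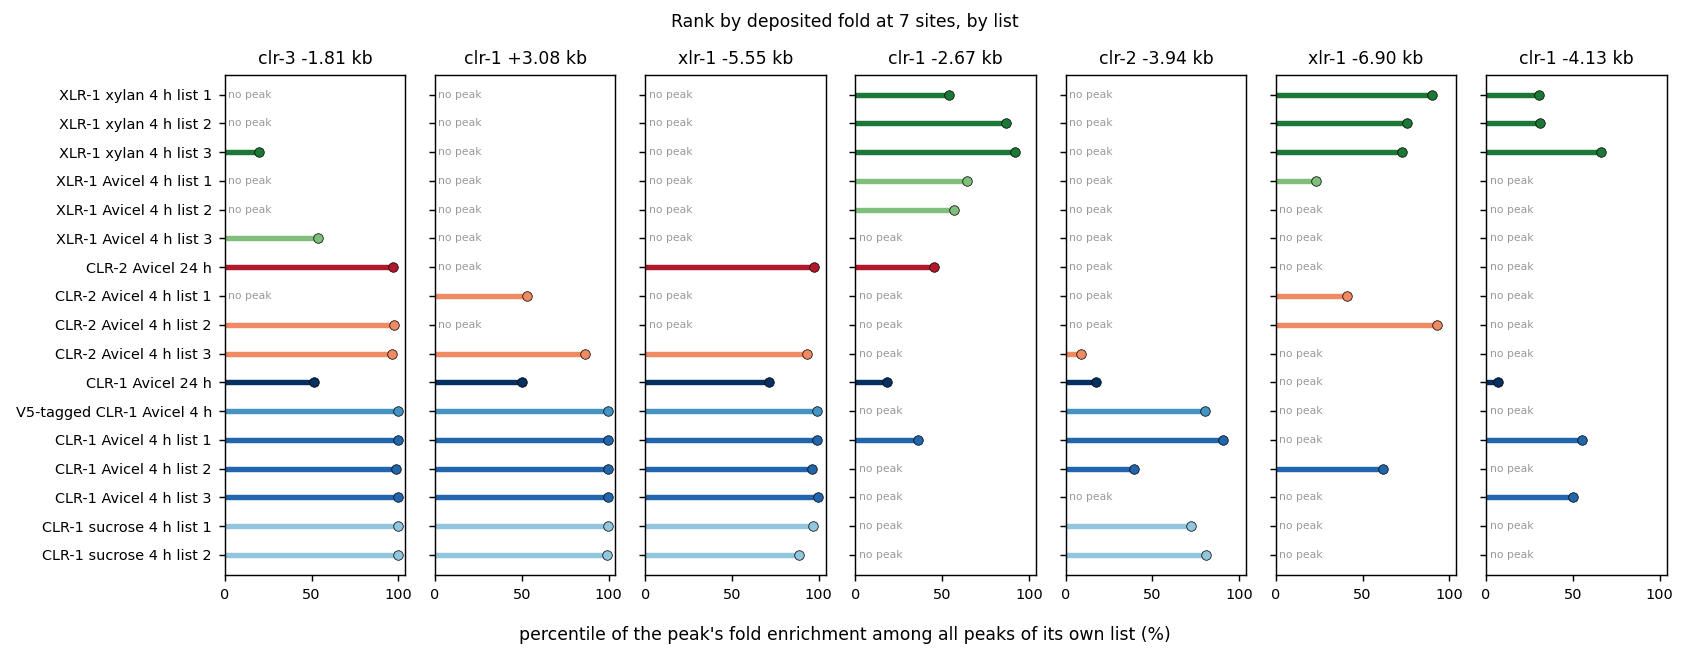
Percentile of each peak's deposited fold among all peaks of its own list (x axis, percent) at the 7 sites with summits in at least 6 lists and at least 4 collected peaks, for each of the 17 lists (y axis), with lists that had no summit in the site marked "no peak". At clr-1 3.08 kb and clr-3 -1.81 kb the 4 h CLR-1 lists lie between the percentiles 98.7 and 100, while the 24 h CLR-1 list lies at 50.3 and 51.4. By tags, which are not drawn, 19 and 2 peaks of the 24 h list stood above these 2. XLR-1 on xylan fills all 3 lists at clr-1 -2.67 and -4.13 kb and xlr-1 -6.90 kb.

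CLR-1 summits lay close together at the sites with a summit in each of its lists. Those sites were picked for that and joined in steps of at most 250 bp, so their narrow span is partly set by the choice. The CLR-1 summits spanned 33 bp over 7 lists at clr-3, 70 bp at clr-1 and 71 bp at xlr-1. Mean distances of the best-scored summit within 5 kb were then compared between groups by exact permutation tests over lists, two-sided, 15 in all. CLR-2 on Avicel stood at -1826 ± 12.7 bp at clr-3 (SD, n = 2 lists) and CLR-1 on Avicel at -1815 ± 7.23 bp (n = 3), a difference of -11.3 bp (exact p = 0.4, adjusted p = 0.667). At clr-1 CLR-2 stood at 3298 ± 381 bp and CLR-1 at 3069 ± 26.2 bp (n = 3 each, exact p = 0.4), and the wide spread came from CLR-2 list 2.

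On Avicel at 4 h the best-scored XLR-1 summits at clr-1 lay upstream and the best-scored ones of both other factors inside the gene. The XLR-1 summits stood at -2465 ± 328 bp, on the other side of the start codon from the 3298 ± 381 bp of CLR-2 and the 3069 ± 26.2 bp of CLR-1 (SD, n = 3 lists each). These best-scored XLR-1 summits overlapped in position with those of neither other factor. The comparison takes 1 summit per list, and CLR-1 lists 1 and 3 on Avicel also had lower-scored summits upstream. Among these was the one of list 1 at -2752 bp, in the -2.67 kb site of XLR-1. Both exact permutation tests of XLR-1 against another factor gave p = 0.1, the smallest that 3 against 3 lists allow, with an adjusted p of 0.667. No test in this design could pass a threshold of 0.05. At clr-2 the standard deviations ran to several kb (3432 bp for CLR-1 on Avicel), because different lists had their best-scored peak at different sites.

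**Figure D3:**
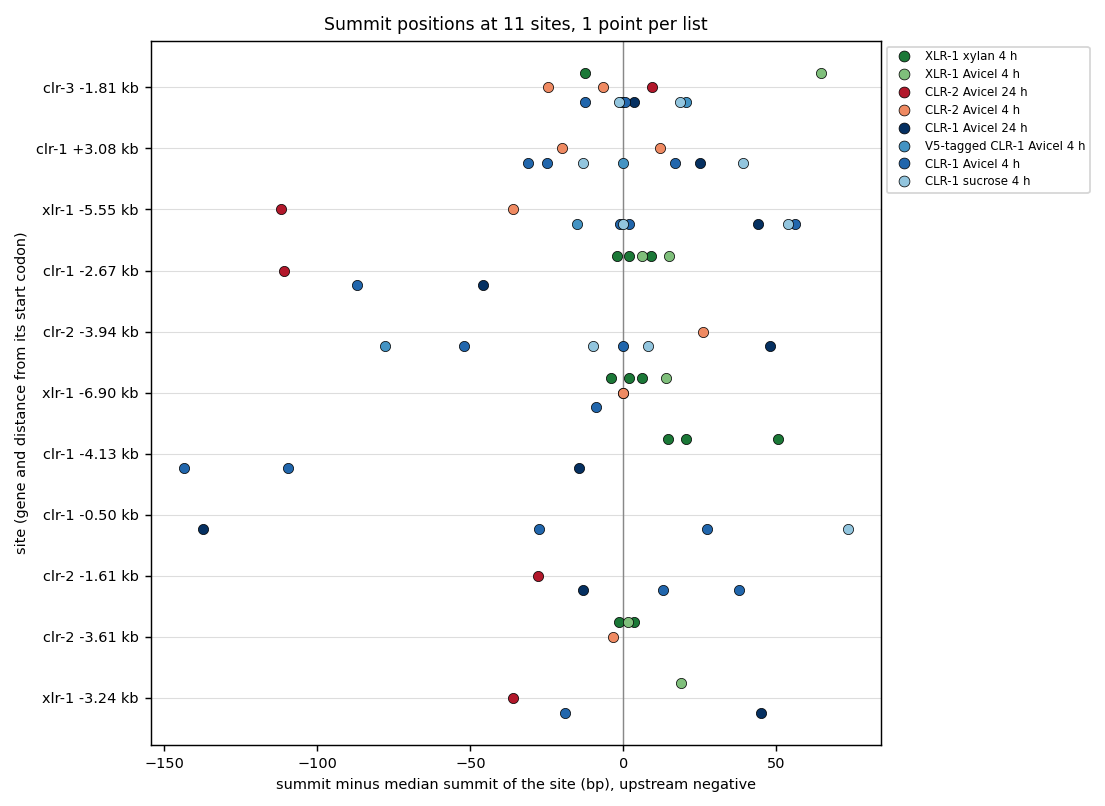
Distance of each list's summit from the median summit of its site (x axis, bp, upstream negative) at the 11 sites with at least 4 collected peaks (y axis), with 1 point per list, coloured by group and set at 3 heights by factor. At clr-2 -3.61 kb and xlr-1 -6.90 kb the summits of different factors fall within 7 and 23 bp, while at clr-1 -4.13 kb the CLR-1 summits lie upstream of the XLR-1 ones.

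The CLR-1 sites with a summit in each list had, by that choice, summits on both carbon sources. The 3 sites with 7 of 7 CLR-1 lists (clr-1 3.08 kb, clr-3 -1.81 kb, xlr-1 -5.55 kb) were picked for a summit in each list. Their presence in 3 of 3 Avicel lists and 2 of 2 sucrose lists was fixed by that choice. The exact tests of their presence (p = 1) could therefore show no difference. The xlr-1 peak of sucrose list 2 had an FDR of 24.8%, while the other peaks of these sites in these lists had 0%. Best-scored summits at clr-1 stood at 3069 ± 26.2 bp on Avicel (n = 3) and 3095 ± 36.8 bp on sucrose (n = 2), a difference of -26 bp (exact p = 0.4, adjusted p = 0.667). At clr-3 they stood at -1815 ± 7.23 bp on Avicel and -1802 ± 14.1 bp on sucrose (exact p = 0.6, adjusted p = 0.818). Sites with a summit in 2 of 3 lists on Avicel and 0 of 2 on sucrose were those at clr-1 -4.13 kb, clr-2 -1.61 kb and clr-2 5.75 kb (exact p = 0.4, adjusted p = 1 for each), and 5 more sites had a summit in 1 Avicel list and none on sucrose. Near clr-2 5.75 kb, however, both sucrose lists had summits at 5211 and 5243 bp (score percentiles 95.1 and 81.7), inside the span of the broad Avicel list 1 peak from 4003742 to 4009819.

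For XLR-1 the xylan lists were the tighter ones at clr-1. Summits stood at -2662 ± 5.57 bp on xylan and -2465 ± 328 bp on Avicel (SD, n = 3 each), a difference of -197 bp (exact p = 0.2, adjusted p = 0.667). Without Avicel list 3 the difference was -7.50 bp. Avicel list 3 is the longest XLR-1 list, with 6904 peaks, and 89.2% of all genes had a summit within 5 kb in it.

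The gene groups around the 4 regulators were called as follows, with the same shares of all genes as above. Of 10 genes for cellulose and xylan use, 7 were called for XLR-1 on xylan, 8 for XLR-1 on Avicel, 8 for CLR-2, 9 for CLR-1 on Avicel and 5 for CLR-1 on sucrose. Among them gh1-1, a β-glucosidase gene, and cdt-1, a cellodextrin transporter gene, had a summit within 5 kb in 17 of 17 lists, as clr-1 did. Of 5 other regulators of carbon use, 3, 3, 2, 3 and 3 were called in the same order of groups. The gene for the carbon catabolite repressor cre-1 had a summit in 16 lists and col-26, a regulator of glucose and starch use, in 14. Of the construct and deletion loci his-3, ccg-1 and mus-51, 0 were called for XLR-1 on xylan and for CLR-1 on either carbon source, and 1 (his-3) for XLR-1 on Avicel and for CLR-2. The XLR-1 summits near his-3 were present in 3 of 3 Avicel lists and 0 of 3 xylan lists, and their part in the XLR-1 values on Avicel was not tested.

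The genes most like each regulator were ranked by the mean absolute difference, over the 17 lists, between the within-list percentiles by score of the best peak within 5 kb. For clr-1 they were gh6-3 (10.9 percentage points), adv-1 (11.6) and NCU08753 (13.7), against a median of 65.7 over all genes. For clr-2 they were cbh-1, the main cellobiohydrolase gene, with its neighbour NCU07341 (12.1 each, from the same peaks) and NCU02084 (15.4), against a median of 47.5. For clr-3 they were NCU02485 and NCU02486 (8.86 each) and NCU02009 (11.7), against a median of 59. For xlr-1, which had a summit within 5 kb in 4 lists, the nearest genes, led by NCU05524 (2.42), are mostly alike in having no peak.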

How the data were processed

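Of the 22 samples, which are pulldowns, inputs and mock pulldowns, 17 peak lists were used, and the 5 inputs and mock pulldowns were not analysed here. The submitters' processing notes name Bowtie2, and MACS made the peak lists, per the file headers. Its settings and any control library are not given here. The authors deposited for each peak a count of tags, a score that is -10 times the log10 of the p-value, per the file headers, and a fold enrichment, whose denominator no header states. The FDR is deposited as a percent, and the CLR-1 list at 24 h has none. Total reads per library were not in the tables, so the depth is known only as tags per peak, and no interval was computed. Positions are on the NC12 assembly.

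Samples were grouped by their labels. The tables number the lists of a group, but do not tie them to library numbers. Summit positions were compared over lists, and the other values of a peak are the authors' own. Start codons and strands came from the tables' gene columns (7197 genes), and for 2532 genes without one the middle of the annotated gene (RefSeq, NC12) was used. This makes the shares of all genes approximate. Distances in the tables run from the summit in 11 lists and from the peak start in 5, within a tolerance of 3 bp. For XLR-1 on xylan list 2 only coordinates were used. In all, 2 columns of other values were not used.

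A gene was called where a summit lay within 5 kb in at least 2 lists. Positions were tested by exact permutation and presence by Fisher's exact test, both two-sided, with Benjamini-Hochberg adjustment over 15, 20 (genes) and 87 (sites) tests and a threshold of 0.05. The members of the gene set, the lists of other genes and the tests were chosen with earlier results of these data known. Named are the 4 regulators, their neighbours, the listed other genes and the 3 genes most like each regulator. A planned search for motifs was not run, as no sequence was used here. The window search was tested on simulated positions. Alternatives were windows of 2 and 8 kb, tables' names, the nearest start codon, upstream summits, minimums for score (100) and fold (5), a maximum for FDR (5%), the best-scored 10% of peaks, other numbers of lists, the highest fold as the summit's choice and each list left out. Tests used scipy 1.17.1 and statsmodels 0.14.6 in Python 3.11.15, tables pandas 2.3.3 with numpy 2.4.6, and plots matplotlib 3.10.9.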

Additional observations from a re-analysis of the deposited data

How the results depend on the processing

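The number of the 4 genes called was 3 in each replicated group. Percentages are the shares of all genes called by the same setting. A window of 2 kb gave 1 (clr-3) for XLR-1 on xylan (6.67%), XLR-1 on Avicel (25.0%), CLR-2 (10.9%) and CLR-1 on sucrose (4.93%). A minimum fold of 5 gave 0 for CLR-2 (0.349%) and for CLR-1 on sucrose (0%). The highest fold in CLR-1 sucrose list 2 is 3.92, so no gene could be called on sucrose at that setting. FDR values up to 5% gave 1 (clr-1) for CLR-2 (8.74%) and 2 (clr-1 and clr-3) for CLR-1 on sucrose (2.73%). The best-scored 10% of peaks gave 0 for XLR-1 on xylan (1.25%), 1 (clr-3) for XLR-1 on Avicel (4.27%) and 0 for CLR-2 (2.24%). A call in every list gave 1 (clr-1) in XLR-1 on xylan (7.74%), XLR-1 on Avicel (19.9%) and CLR-2 (7.99%). A score of at least 100 gave 1 in XLR-1 on xylan (clr-1, 8.56%) and on Avicel (clr-3, 21.4%), and upstream summits alone gave 1 (clr-1) for XLR-1 on Avicel (20.6%). For CLR-1 on Avicel, each alternative gave 3 or 4, while the share of all genes ran from 3.71% (best-scored 10%) to 43.3% (at least 1 list). With 1 list left out at a time, a call needed a summit in each remaining list, so in 2 of 2, or in 1 of 1 for CLR-1 on sucrose. The count then ranged from 1 to 2 for XLR-1 on xylan (10.2% to 11.4%) and on Avicel (20.6% to 48.1%). For CLR-2 it ranged from 1 to 3 (10.1% to 25.3%). It was 3 for CLR-1 on Avicel (13.5% to 21.1%) and on sucrose, where the looser rule called 46.5% or 17.9% of all genes. The 1 followed from leaving out list 3 for XLR-1 on either source and list 2 or 3 for CLR-2, and was clr-1 in each case. In all, 20 alternative counts moved, among them the minimum fold for CLR-1 on sucrose, which could only give 0, and 53 did not.

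Directions of summit distances reversed at clr-2 alone. For CLR-2 minus CLR-1 on Avicel, 1074 bp as reported, a rule that also takes genes named in the tables gave -4620 bp and leaving out a list gave -2985 to 5134 bp. For XLR-1 minus CLR-1, 274 bp as reported, these were -5420 bp and -2688 to 3236 bp. For XLR-1 minus CLR-2, -800 bp as reported, a score of at least 100 gave 2162 bp and leaving out a list -4860 to 3259 bp. The cause was not tested. In all, 10 alternative distances reversed and 121 did not. No paired analysis was possible because the titles give library numbers, which the groups do not share, and the lists cannot be tied to them. Peaks of XLR-1 near these genes held as few as 11 tags, which limits what those lists can show.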
